A study of Mus musculus with 9 samples.

Results

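The regions described here were open in day 6 reprogramming cells treated with a control siRNA (D6_siNT), in untransfected Thy-1-negative cells of the same day (D6T-) and in fully reprogrammed cells (iPSCs). They had no called region in day 6 cells in which the histone variant H3.3 had been knocked down transiently at the start (D6_siH3.3). They were chosen by their ATAC-Seq peak calls in these 4 libraries. Overlapping peaks of a library were merged on chromosomes 1 to 19, and 1 shared bp counted as overlap. The rule found 3063 members among 45312 D6_siNT regions, and the 9 libraries of the series held 606963 merged regions in all. Of the members, 1567 had no region in the starting fibroblasts (absent at D0) and 1496 had one (present at D0). Because the calls in D6_siNT, D6T-, iPSCs and D6_siH3.3 chose the members, values of these libraries are given as a description, and the D0, D3, D9T-, D12S+ and D16S+ libraries, the positions and the sequences are the measures that the rule did not use.

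All cells came from mouse embryonic fibroblasts (MEFs) that carried GFP at Oct4. They were infected with pMXs retroviruses for Oct4, Sox2, Klf4 and c-Myc (OSKM), except for D0, the MEFs before induction. D3 was unsorted, D6T- and D9T- were Thy-1-negative cells of days 6 and 9, D12S+ and D16S+ were SSEA-1-positive cells of days 12 and 16, and iPSCs were established. D6_siH3.3 and D6_siNT were transfected with siRNA against H3f3a and H3f3b, or with a non-targeting siRNA, before OSKM induction. The labels give both as Thy-1-negative, whereas the sample list of the study gives no sorting for them. Each condition had 1 library, so a difference between conditions cannot be told apart from a difference between libraries, no test was possible, and each interval is a 95% Wilson interval that covers the sampling of regions only. Accessibility does not measure transcripts, so the knockdown itself was not checked here. The paper followed H3.3 protein by western blot to day 6 and describes the knockdown as transient, limited to early reprogramming.

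H3.3 is the replication-independent form of histone H3. It is deposited throughout the cell cycle by chaperones such as Hira, at promoters and active genebodies, and by Daxx and Atrx at silent repeats. In ATAC-Seq the Tn5 transposase cuts DNA that nucleosomes leave free, so a peak marks an accessible promoter, enhancer or insulator. During reprogramming, fibroblast enhancers that hold AP-1, Tead and Runx motifs are known to close, whereas sites bound by Oct4, Sox2, Klf4 and later Esrrb open.

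The DNA at the strongest members is shown to let a reader see what kind of sequence was called in D6_siNT and not in D6_siH3.3. Strength is the summit pileup, the count of tags over the summit of a peak once each tag is extended to 200 bp. The 4 strongest members absent at D0 and the 2 strongest present at D0 whose window held no annotated exon are printed, leaving out the region nearest to Neto1, whose chromosome was not used for sequences, each as 200 bp around the D6_siNT summit on the plus strand of mm9. Capitals mark a match to any of 12 short motifs, which are spelled out with their shares further on. The Dennd2c window (chr3:102950518-102950717) lies in an intron, within 3 kb upstream of a transcript start. The Ppcdc window (chr9:57275762-57275961) and the Efna5 window (chr17:63133482-63133681) are intronic. The window nearest to Hspe1 (chr1:55165467-55165666) and those nearest to Cfl2 (chr12:55935996-55936195) and Shc4 (chr2:125557482-125557681) are intergenic.
Dennd2c, absent at D0: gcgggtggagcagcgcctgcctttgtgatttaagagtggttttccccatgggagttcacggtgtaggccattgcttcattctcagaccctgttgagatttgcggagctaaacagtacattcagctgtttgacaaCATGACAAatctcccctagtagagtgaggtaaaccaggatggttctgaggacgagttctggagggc
Ppcdc, absent at D0: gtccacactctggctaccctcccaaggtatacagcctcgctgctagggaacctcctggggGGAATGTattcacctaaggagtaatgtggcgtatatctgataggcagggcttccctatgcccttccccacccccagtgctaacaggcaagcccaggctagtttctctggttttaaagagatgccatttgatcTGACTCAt
Efna5, absent at D0: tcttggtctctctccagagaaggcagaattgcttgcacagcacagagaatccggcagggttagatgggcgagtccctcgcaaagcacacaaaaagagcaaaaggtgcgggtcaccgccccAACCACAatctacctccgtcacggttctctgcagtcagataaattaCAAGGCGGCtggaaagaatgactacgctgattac
Hspe1 (nearest gene), absent at D0: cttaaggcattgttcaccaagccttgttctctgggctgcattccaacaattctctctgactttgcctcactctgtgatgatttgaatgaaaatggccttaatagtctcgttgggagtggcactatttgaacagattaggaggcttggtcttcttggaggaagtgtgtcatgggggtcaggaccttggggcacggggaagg
Cfl2 (nearest gene), present at D0: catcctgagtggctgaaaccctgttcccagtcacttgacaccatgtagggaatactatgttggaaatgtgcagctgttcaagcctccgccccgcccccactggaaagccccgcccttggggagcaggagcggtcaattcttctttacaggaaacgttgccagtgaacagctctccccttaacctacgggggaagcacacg
Shc4 (nearest gene), present at D0: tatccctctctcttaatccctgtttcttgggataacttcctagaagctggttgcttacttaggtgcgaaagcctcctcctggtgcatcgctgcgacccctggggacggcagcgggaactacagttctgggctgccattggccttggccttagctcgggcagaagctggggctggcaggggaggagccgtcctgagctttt
The Dennd2c window held 1 match to the Pou-Sox composite core, the Ppcdc window held 1 AP-1 and 1 Tead match, and the Efna5 window held 1 CTCF core and 1 Runx match. The windows at Hspe1, Cfl2 and Shc4 held none of the 12 motifs. The GC content of the 6 windows lay between 48.5% (Hspe1) and 58.0% (Shc4), and they held between 2 (Ppcdc and Hspe1) and 9 (Efna5) CpG dinucleotides.

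The libraries differed in depth and in how much was called. Tags after duplicate removal ranged from 13213117 (D9T-) to 31714845 (D0), and D6_siNT (21784047) was deeper than D6_siH3.3 (18669683). The D6T- library stood apart with 129532 regions on chromosomes 1 to 19, against 35811 to 104965 in the 8 other libraries, so its requirement removed little: 3261 regions met the rule when no D6T- region was asked for, an alternative chosen after seeing the data. The lowest pileup that was called was 9 tags in D6_siNT (0.413 tags per 1000000 tags of the library, CPM) and 8 tags in D6_siH3.3 (0.429 CPM). Promoter regions were called at 5 of 7 fibroblast markers and 1 of 7 pluripotency markers in D6_siNT, at 4 and 0 in D6_siH3.3, and at 4 and 7 in iPSCs. The pluripotency marker in D6_siNT was Esrrb, whose promoter member had 10 tags, near the lowest pileup called. Of the blood, endothelial and neural markers, Cd34, Kdr and Pax6 had a promoter region in both siRNA libraries, and the 6 others had none in either. In bulk cells, fewer open cells and less opening per cell cannot be told apart.

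Among the 20651 D6_siNT regions that were also found in D6T- and iPSCs, 14.8% (14.4 to 15.3%) had no D6_siH3.3 region. This share lay below that over all D6_siNT regions (23.8%) and below that of the D6_siNT regions that D6T- and iPSCs did not both hold (31.4%). The exchange of both siRNA libraries gave a similar yield. Of 20464 D6_siH3.3 regions found in D6T- and iPSCs, 2755 had no D6_siNT region (13.5%), beside 24.9% over all D6_siH3.3 regions. These 2755 are called mirror regions here, and the 17588 regions that both siRNA libraries held are called kept regions. The missing share differed by presence at D0: 33.3% (32.0 to 34.7%) of the regions absent at D0 were missing in D6_siH3.3, against 9.38% (8.94 to 9.84%) of those present at D0. These shares are not matched for pileup. Kept regions absent at D0 were weaker, with a median of 16 tags in D6_siNT against 24 tags in those present at D0.

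Members were weak peaks. Their D6_siNT summit pileup had a median of 13 tags (interquartile range 11 to 14) and reached 29 tags at most, whereas kept regions had a median of 22 tags. In CPM the members' median was 0.597, which is 1.39 times the lowest level called in D6_siH3.3. Only 109 members (3.56%) had a D6_siNT level above 2 times that floor, against 61.9% of the kept regions. At the other end, 170 members lay at 9 tags, which scaled to the D6_siH3.3 tags falls below the lowest pileup called there. Members were also narrow, with a median width of 260 bp against 516 bp in kept regions. The mirror regions had a median of 11 tags and a median width of 253 bp, and 191 of them (6.93%) lay above 2 times the lowest level called in D6_siNT.

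The missing share fell with pileup. It was 51.3% (48.1 to 54.5%) at 9 to 10 tags, 42.1% at 11 to 12, 33.1% at 13 to 14, 18.6% at 15 to 17, 4.65% at 18 to 22 and 0.482% at 23 to 29 tags. None of the 5523 regions with 30 or more tags was missing. The D6_siH3.3 regions behaved alike, with 42.3% (40.3 to 44.3%) missing from D6_siNT at 8 to 10 tags, 21.0% at 13 to 14 tags and 3 of 2625 regions at 23 to 29 tags. In each bin up to 22 tags the interval of D6_siNT lay above that of D6_siH3.3. The bins are in tags of each library, and D6_siH3.3 held 0.857 times the tags of D6_siNT.

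**Figure D1:**
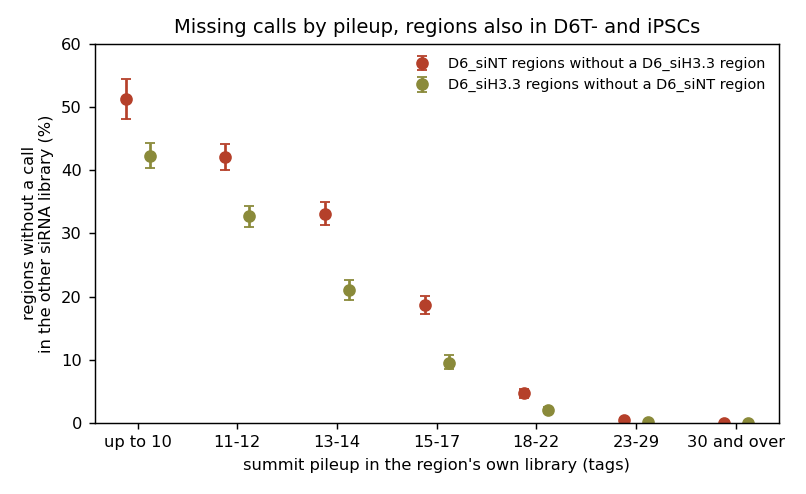
Percent of regions without an overlapping call in the other siRNA library (y axis) by the summit pileup in their own library in tags (x axis), for regions also called in D6T- and iPSCs. Points are shares and bars are 95% Wilson intervals: the share missing from D6_siH3.3 fell from 51.3% in the lowest bin to 0 at 30 tags and over, and that missing from D6_siNT fell from 42.3% to 0.

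The distance from a member to the nearest D6_siH3.3 region describes the spacing of calls and not the signal at the member. The median gap was 5957 bp, and it ranged from 1 to 623553 bp. A D6_siH3.3 region lay within 500 bp of 615 members (20.1%, 18.7 to 21.5%), and these neighbours had a median of 15 tags. In 390 of the 615 (63.4%), the neighbour's pileup in D6_siH3.3 was higher than the member's own in D6_siNT. The same held for 18.6% (17.2 to 20.1%) of the mirror regions, which had a D6_siNT region within 500 bp. At the edge of the rule, 36 members had a gap of at most 20 bp and a median of 12 tags, and 49 kept regions overlapped a D6_siH3.3 region by at most 20 bp with the same median.

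The presence at D0 was a measure that the rule did not use. A D0 region was found at 48.8% (47.1 to 50.6%) of the members, at 82.2% (81.6 to 82.7%) of the kept regions and at 46.8% of the mirror regions. The lower share in members than in kept regions was also seen at like D6_siNT pileup. At 9 to 10 tags 39.9% (35.6 to 44.4%) of the members and 59.9% (55.3 to 64.3%) of the kept regions were present at D0. The shares were 48.1% and 66.1% at 13 to 14 tags, and 63.5% (55.7 to 70.6%) and 81.8% (80.5 to 83.1%) at 18 to 22 tags. Only D6_siNT pileup was matched. At 13 to 14 tags the median D6T- level was 1.12 CPM in members and 1.59 CPM in kept regions. Members and mirror regions thus lay close together, and both lay below the kept regions.

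Members lay less often in promoters than kept regions, and the difference was in those present at D0. A promoter was 3 kb upstream of a transcript start, and the midpoint of a region decided its class. Of the members present at D0, 31.6% (29.3 to 34.0%) were in promoters, 41.2% in genebodies and 27.2% in intergenic DNA. The kept regions present at D0 were in promoters in 56.1% (55.3 to 56.9%) of cases. At 11 to 14 tags the shares were 31.4% (28.5 to 34.6%) of 878 members and 40.2% (38.1 to 42.4%) of 1989 kept regions. Among regions absent at D0, 31.3% of the members and 29.3% (27.8 to 30.9%) of the kept regions were in promoters, and at 11 to 14 tags 31.4% and 31.7%. With the stronger 50% of the peaks of every file, the promoter share of members present at D0 was 53.4% and that of members absent at D0 was 40.6%. The share of kept regions was not computed under this setting, so these values cannot be set against those of kept regions above.

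**Figure D2:**
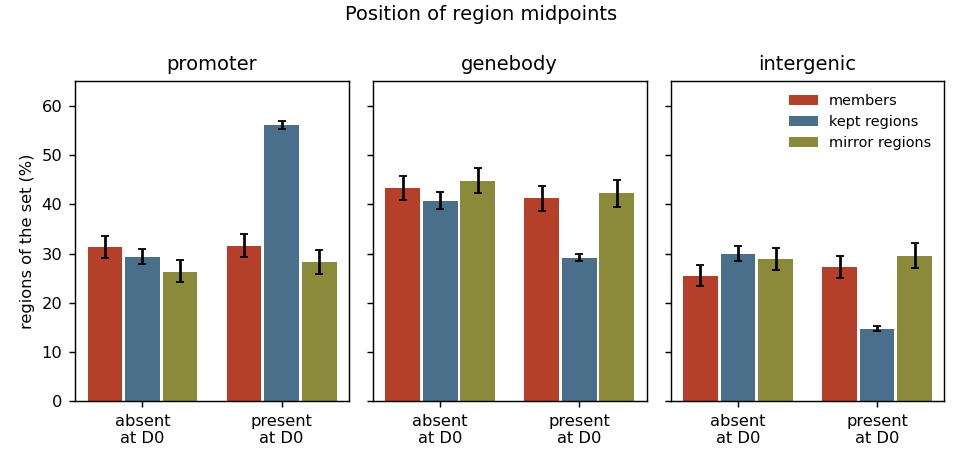
Share of regions by the position of their midpoint (y axis, percent) for members, kept regions and mirror regions, split by presence at D0 (x axis), in promoters, genebodies and intergenic DNA. Bars start at 0 and error bars are 95% Wilson intervals; among regions present at D0 the kept regions were in promoters in 56.1% of cases, against 31.6% of members and 28.3% of mirror regions.

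The summits of the members lay in introns in 38.6% of cases, outside genes in 37.6%, in UTRs in 12.6% (11.4 to 13.8%), in coding exons in 8.33% (7.40 to 9.36%) and in other exons in 2.97%. Coding exons held more of the members absent at D0 (9.76%, 8.39 to 11.3%) than of the kept regions absent at D0 (4.95%, 4.24 to 5.76%). The share of the mirror regions absent at D0 was 7.44% (6.2 to 8.9%), with an interval that overlapped that of the members. Introns held 26.4% and UTRs 19.6% of the kept regions. The nearest protein-coding transcript start was within 1 kb of 39.7% (37.9 to 41.4%) of the members and of 62.1% of the kept regions, and beyond 50 kb of 10.6% and 8.51%. Members absent at D0 differed from their kept counterparts in the opposite way, with 42.1% (39.7 to 44.6%) against 34.6% (32.9 to 36.2%) within 1 kb and 11.6% against 19.9% beyond 50 kb. The median distance to the nearest start was 2587 bp for members and 6383 bp for kept regions absent at D0. Mirror regions absent at D0 lay within 1 kb in 34.2% (31.8 to 36.7%) of cases, with a median of 4863 bp. These summit positions and distances were not matched for pileup, and members were weaker than kept regions. Among kept regions absent at D0, the promoter share was 38.8% at 9 to 10 tags and 17.3% at 30 tags and over. Of the 963 promoter members, 348 (36.1%) belonged to a gene that also had a kept promoter region.

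The libraries of the time course that the rule did not use held most members. Of the members absent at D0, 78.6% (76.5 to 80.5%) had a region at D3, 78.7% (76.7 to 80.7%) at D12S+ and 77.1% (74.9 to 79.1%) at D16S+, but only 29.2% (27.0 to 31.5%) at D9T-. Those present at D0 were found in 95.6%, 86.8%, 79.5% and 37.8% (35.4 to 40.3%) of cases, in the same order of libraries. The D9T- library was the shallowest and its lowest called level, 0.530 CPM, was the highest of all. Kept regions were called in D9T- in 72.6% (absent at D0) and 89.6% (present at D0) of cases. The lower share at D9T- was also seen at like D6_siNT pileup, with strength in the other libraries not matched. At 11 to 14 tags, 28.3% (25.6 to 31.2%) of the members and 55.1% (52.2 to 58.0%) of the kept regions absent at D0 had a D9T- region, and 32.1% and 63.9% of those present at D0. At D3 the like values for regions absent at D0 were 78.7% and 81.9% with overlapping intervals (76.0 to 81.1% and 79.5 to 84.0%). At D16S+ they were 76.9% (74.1 to 79.4%) and 83.2% (80.9 to 85.3%), and at D12S+ 79.0% (76.4 to 81.4%) and 88.7% (86.8 to 90.5%). For regions present at D0 they were 95.4% and 98.9% at D3, 85.1% (82.6 to 87.3%) and between 94.0 and 95.9% (the interval) at D12S+, and 78.8% and 89.0% at D16S+, each with separate intervals.

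**Figure D3:**
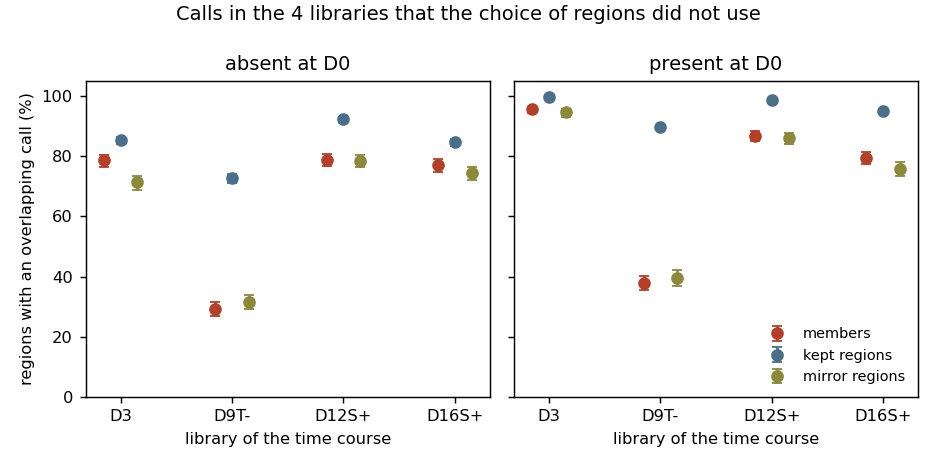
Share of members, kept regions and mirror regions with an overlapping region (y axis, percent) in D3, D9T-, D12S+ and D16S+ (x axis), for regions absent (left) and present (right) at D0. Points are shares and bars are 95% Wilson intervals; in D9T- 29.2% and 37.8% of the members were called, against 72.6% and 89.6% of the kept regions.

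All of D3, D9T-, D12S+ and D16S+ held a region at 24.5% of the members, against 80.0% of the kept and 23.9% of the mirror regions. With D9T- left out, 62.9% (61.2 to 64.6%) of the members were called in each of D3, D12S+ and D16S+, an alternative chosen after seeing the data. A late pattern, with D12S+ and D16S+ but no D3 region, was seen at 180 members absent at D0 (11.5%, 10.0 to 13.2%) and at 30 present at D0 (2.01%). The reverse, a D3 region and neither SSEA-1-positive library, was seen at 103 members absent at D0 (6.57%) and 85 present at D0 (5.68%). None of D3, D12S+ and D16S+ called 82 members (2.68%), of which 69 were absent at D0.

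At the called regions, the summit nearest to the member's D6_siNT summit gave its level in each library. Members absent at D0 had a median of 0.628 CPM (D3), 0.935 (D6T-), 0.551 (D6_siNT), 0.852 (D12S+), 0.850 (D16S+), with 0.640 (iPSCs). Members present at D0 had 0.568 CPM (D0), 0.761 (D3), 1.31 (D6T-), 0.597 (D6_siNT), 0.908 (D12S+), 0.850 (D16S+), with 0.640 (iPSCs). Both classes were thus highest in D6T- and ended at the same median in iPSCs. The D6T- level was above the D6_siNT level at 2892 members (94.4%), with a median ratio of 1.89, and at 97.6% of the kept regions, with a median ratio of 2.57. The nearest summit lay within 100 bp of the D6_siNT summit in 73.8% of the members in D6T- and in 61.5% in iPSCs.

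The strongest members present at D0 began with a region 27.8 kb from Cfl2, which encodes an actin-severing cofilin. This region (chr12:55935838-55936375) had 29 tags in D6_siNT, the highest of all members, and the nearest D6_siH3.3 region lay 27.2 kb away. Its level was 0.946 CPM (D0), 1.82 (D3), 4.30 (D6T-), 1.33 (D6_siNT), 1.36 (D9T-), 1.70 (D12S+), 0.567 (D16S+), with 0.564 (iPSCs). It was highest at D6T-, where no other of the 10 strongest members of either class reached its level.

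The promoter of Actg1, the gene of cytoplasmic gamma-actin, was open at chr11:120209668-120210075 with 27 tags in D6_siNT, 15 bp from the start. It had 0.473 CPM (D0), 1.12 (D3), 1.59 (D6T-), 1.06 (D9T-), 0.625 (D12S+), 1.18 (D16S+), with 0.715 (iPSCs), and a D6_siH3.3 region of 21 tags lay 1.47 kb away. The promoters of Gbp3 (26 tags), an interferon-inducible guanylate-binding protein, and Tor3a (24 tags), a torsin ATPase, had no D6_siH3.3 region within 18.9 and 2.61 kb. Gbp3 was open in all 7 time course libraries at 0.568 (D0) to 2.38 CPM (D6T-), and Tor3a at 0.536 (D0) to 3.23 CPM (D6T-). Snrnp35, which encodes a protein of the minor spliceosome, was open 8 bp from its start with 23 tags. It had 0.473 CPM (D0), 1.92 (D6T-) and 0.903 (iPSCs). In an intron of Kynu, the enzyme kynureninase of tryptophan breakdown, 25 tags were called, with 0.725 CPM (D0), 1.59 (D6T-), 0.677 (iPSCs) and no region at D3.

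The intergenic region nearest to Shc4, an adaptor of receptor tyrosine kinases, had 26 tags in D6_siNT and was 7.75 kb from the start. It was lowest at D0 (0.473 CPM), had 2.80 CPM (D6T-) and 2.03 (D16S+), and had no D9T- region. The region nearest to Ggnbp1 (25 tags) had 1.36 CPM (D0), 3.27 (D6T-) and 1.13 (iPSCs). A region in a gene desert, 697 kb from Neto1, had 27 tags in D6_siNT (1.24 CPM) but only 16 tags in D6T- (0.748 CPM), and 2.27 CPM (D16S+). It was thus among the members in which D6T- was below D6_siNT. The promoter of 4833412C05Rik had 23 tags, with 1.32 CPM (D0), 1.96 (D6T-) and 0.602 (iPSCs).

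Promoter members present at D0 that followed in strength were those of a U1 snRNA copy near Ipo7, Taf5, Rnpepl1 and Ndufc1, with 22 to 23 tags each. Taf5, a subunit of the general factor TFIID, had 0.662 CPM (D0), 1.19 (D3), 1.17 (D6T-), 1.06 (D6_siNT), 1.31 (D12S+), 1.65 (D16S+), with 0.527 (iPSCs), and a D6_siH3.3 region of 21 tags lay 450 bp away. Ndufc1, a subunit of respiratory complex I, had 0.725 CPM (D0), 1.36 (D6T-) and 1.79 (D16S+), with the nearest D6_siH3.3 region 6.54 kb away. The U1 copy had 4.02 CPM (D6T-) against 1.06 (D6_siNT). U1 has many near-identical copies, but the authors removed reads that mapped to more than 1 locus.

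The strongest members absent at D0 had 20 to 22 tags in D6_siNT, below those present at D0 (23 to 29 tags). At Nfkb1, the p105 and p50 subunit of NF-kappaB, a region over the 5′ end (chr3:135354307-135354636) had 22 tags, but a D6_siH3.3 region of 12 tags lay 22 bp away. It had 1.26 CPM (D3), 1.45 (D6T-), 0.908 (D12S+), 0.425 (D16S+), with 0.564 (iPSCs). At Dennd2c, which encodes a DENN-domain exchange factor of Rab proteins, the gap to a D6_siH3.3 region of 9 tags was 55 bp. Its own pileup was 22 tags, with 0.728 CPM (D3), 1.59 (D6T-), 0.908 (D9T-), 1.25 (D12S+), 1.23 (D16S+), with 0.752 (iPSCs). Fgl2, a fibrinogen-like protein, stood farther from any D6_siH3.3 region (23.8 kb). Its start (chr5:20878321-20878709, 22 tags) had 1.22 CPM (D3), 2.48 (D6T-), 0.833 (D9T-), 0.681 (D12S+), 0.850 (D16S+), with 0.489 (iPSCs).

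The intronic member of Efna5, a membrane-bound ephrin ligand, had 21 tags and no D6_siH3.3 region within 46.3 kb. It had no region at D0, D3 and D9T-, and 1.87 CPM (D6T-), 1.31 (D12S+), 0.945 (D16S+), with 0.715 (iPSCs). That of Ppcdc, an enzyme of coenzyme A synthesis, had 21 tags, 0.893 CPM (D3), 1.31 (D6T-), 0.520 (D16S+), with 0.602 (iPSCs), and no region at D9T- and D12S+. The intergenic member 20.4 kb from Hspe1, the mitochondrial co-chaperonin, had 20 tags and was higher in iPSCs (1.43 CPM) than at D3 (0.529) and D12S+ (0.681), with 1.54 CPM (D6T-) and no region at D16S+. Intergenic members nearest to Ptgfrn and Gbp2 had 20 tags each, and were also called at D3, D12S+ and D16S+.

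Promoter members absent at D0 included those of BC026585 (20 tags), Hfm1 (19 tags), Spire1 (19 tags), Aim2 (18 tags) and Arcn1 (18 tags). Hfm1 is a helicase of meiotic crossover. It had 0.628 CPM (D3), 1.45 (D6T-), 0.872 (D6_siNT), 0.605 (D9T-), 0.908 (D12S+), 0.897 (D16S+), with 0.640 (iPSCs). Aim2, a sensor of cytosolic DNA, was higher late in the time course, with 0.562 CPM (D3), 1.03 (D6T-), 1.82 (D9T-), 2.38 (D12S+), 3.02 (D16S+), with 2.11 (iPSCs). Its nearest D6_siH3.3 region was 13.3 kb away. Spire1, an actin nucleator, had 1.06 CPM (D3), 1.03 (D6T-), 1.25 (D12S+), 1.65 (D16S+), with 1.39 (iPSCs). Gm10828 (20 tags) and 1700001P01Rik (19 tags) completed the 8 strongest with Dennd2c. Arcn1, a coatomer subunit, was highest at D3 (1.46 CPM) and had 0.527 CPM in iPSCs.

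**Figure D4:**
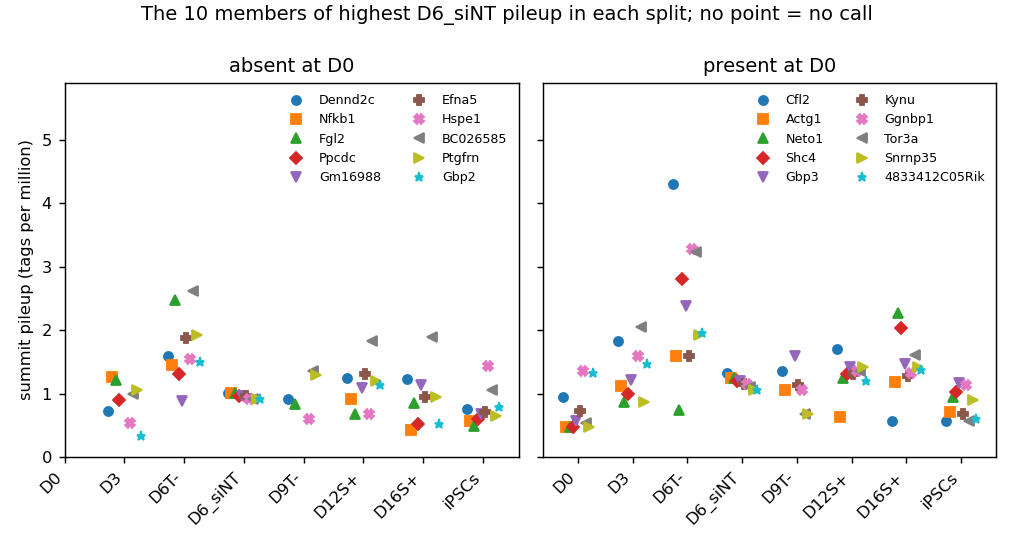
Summit pileup in CPM (y axis) in each library (x axis) of the 10 members with the highest D6_siNT pileup absent (left) and present (right) at D0, named by their gene or the nearest one; a missing point means no call, and D6_siH3.3 had none by the rule. The members lay close together in D6_siNT (0.918 to 1.33 CPM) and spread most in D6T- (0.748 to 4.30 CPM). The choice by D6_siNT pileup itself narrowed the range in D6_siNT.

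Genes could be named for members in promoters and genebodies. There were 1998 such genes, of which 1844 were protein-coding, and 1781 had 1 member, 183 had 2, 27 had 3 and 7 had 4. As background, 13.2% of the regions at protein-coding genes that D6_siNT shared with D6T- and iPSCs were members, and 16.8% of the 11000 genes with such a region had at least 1. The counts below are read against these shares, and no list held more than 47 regions.

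Of the naive and core pluripotency list, 1 gene of 12 with such regions, Esrrb, had members, and they were 3 of 18 regions (16.7%). Esrrb encodes an orphan nuclear receptor of the naive network. All 3 were present at D0. The region over its 5′ end (chr12:87762530-87762806) lay 74 bp from a start, with 0.410 CPM (D0), 0.496 (D3), 0.654 (D6T-), 0.459 (D6_siNT), 0.625 (D12S+) and 0.527 (iPSCs), and no region at D9T- and D16S+. The intronic region 11.7 kb from a start (chr12:87774411-87774651) was stronger, with 0.473 CPM (D0), 0.628 (D3), 1.87 (D6T-), 0.551 (D6_siNT), 1.06 (D9T-), 1.14 (D12S+), 0.756 (D16S+), with 0.978 (iPSCs). The intronic region 18.7 kb from a start had 11 tags in D6_siNT (0.505 CPM). The nearest D6_siH3.3 region was the same for all 3, had 8 tags and lay 2.24 kb from the closest of them. Esrrb was also the only 1 of the 7 pluripotency markers with a promoter region in D6_siNT. The low pileup of its 3 members, 10 to 12 tags, falls in the bins where 42.1% to 51.3% of all such regions were missing.

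Of the epithelial list, 4 of 15 regions (26.7%) at 4 of 10 genes were members, and all 4 were absent at D0. Epcam, an epithelial adhesion molecule, had a region over a coding exon near its start (chr17:88035986-88036257) with 9 tags in D6_siNT (0.413 CPM), the lowest pileup called. It had 0.496 CPM (D3), 0.888 (D6T-), 1.53 (D12S+), 1.42 (D16S+), with 0.564 (iPSCs). Dsp, the desmosomal protein desmoplakin, was open 85 bp from its start (chr13:38242999-38243226) with 11 tags, 0.761 CPM (D3), 1.08 (D6T-), 0.681 (D12S+), 0.897 (D16S+), with 0.715 (iPSCs). Spint2, a protease inhibitor of epithelia, had 9 tags at its promoter and 1.65 CPM (D16S+). Jup, the junction protein plakoglobin, had 12 tags in an intron and 1.04 CPM (D16S+). None of the 4 had a D9T- region. The nearest D6_siH3.3 region was 1.06 kb (Dsp) to 22.9 kb (Epcam) away. Their low pileup, 9 to 12 tags, falls in the bins where 42.1% to 51.3% of all such regions were missing.

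Of the mesenchymal and fibroblast list, 4 of 23 regions (17.4%) were members. Tagln, the actin-binding protein transgelin, was the strongest of them with 20 tags at its promoter (chr9:45745111-45745409). It had 1.26 CPM (D0), 0.794 (D3), 1.59 (D6T-), 0.918 (D6_siNT), 0.795 (D12S+), 0.520 (D16S+), with 0.564 (iPSCs), and no D6_siH3.3 region within 17.2 kb. Runx2, a bone transcription factor, had 11 tags at its start and was present at D0 (0.441 CPM). Prrx1 and Zeb2, transcription factors of mesenchyme, had 11 and 13 tags and were absent at D0. Collagen genes had 2 members of 14 regions (14.3%), an intronic one in Col4a1 and the Col8a1 promoter, both absent at D0.

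The MAPK list, kinases of the growth factor and stress cascades and their inhibitors, had 8 members of 47 regions. They lay at 7 of 29 genes (24.1%). This is a share of genes, to be read against the gene background of 16.8% and not the region background of 13.2%. The share of regions, 8 of 47, also lay above its background of 13.2%. Map2k3, a kinase upstream of p38, had 21 tags at chr11:60744160-60744557, with 1.14 CPM (D0), 0.926 (D3), 1.87 (D6T-), 0.965 (D12S+) and 0.489 (iPSCs). It had no region at D9T- and D16S+, and a D6_siH3.3 region of 35 tags lay 647 bp away. Mapk3, the kinase ERK1, had members on both sides of its start. The upstream one (chr7:133902803-133903285, 17 tags) had 1.01 CPM (D0), 1.75 (D3), 2.15 (D6T-), 0.681 (D9T-), 2.21 (D12S+), 1.32 (D16S+), with 1.58 (iPSCs), and the nearest D6_siH3.3 region was 11.1 kb away. The downstream one had 11 tags. Of the others, Dusp4 was present at D0, and Map3k5, Map3k3, Map2k6 and Spry1 were absent, with 11 to 14 tags each and a D6_siH3.3 region within 107 bp (Map3k3) to 3.67 kb (Map2k6).

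The 4 other lists had fewer members among their regions than the background of 13.2%. By genes the order differed: AP-1 (3 of 15) lay above the gene background of 16.8%, and chromatin regulators (16.7%) lay close to it. The lists of DNA replication and cell cycle (9.09%) and of H3.3 and its chaperones (12.5%) lay below it. AP-1 and related bZIP factors had 3 members of 26 regions (11.5%) at 3 of 15 genes: Batf3, Mafk and Mafg, all absent at D0, with 10, 13 and 12 tags. Mafk had a D6_siH3.3 region of 31 tags 41 bp away. DNA replication and cell cycle genes had 3 of 32 regions (9.38%), of which 2 were neighbouring intronic regions of Cdkn1a, the p21 inhibitor, present at D0 (17 and 10 tags), and 1 was upstream of Cdkn2a, the p16 and Arf locus, absent at D0 (10 tags). Cdkn2a had 0.496 CPM (D3), 0.888 (D6T-), 0.795 (D12S+), 1.04 (D16S+), with 1.58 (iPSCs) (at a summit 743 bp off), and a D6_siH3.3 region of 24 tags lay 229 bp away. H3.3 and its chaperones had 1 of 13 regions (7.69%), an intron of Cabin1, a subunit of the Hira complex, with 12 tags and no D6_siH3.3 region within 19.9 kb. Chromatin regulators had 4 of 41 regions (9.76%): Dnmt3b, Arid1a and Kdm2b were present at D0 with 12 tags each, and Tet1 was absent with 15 tags.

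The 5 genes named for the most members were Gm16889, Camta1, Tns3, 8430427H17Rik and Bahcc1, with 4 each. The intronic regions of Gm16889 on chromosome 4 differed from most members in that D6T- was below D6_siNT at all 4, for example 0.608 against 0.918 CPM at chr4:146791214-146791802. That region had 0.883 CPM (D0), 2.50 (D12S+), 2.60 (D16S+), with 1.96 (iPSCs), and a D6_siH3.3 region of 17 tags lay 264 bp away. Gm16889 also held 13 kept regions. The members of Camta1, a calmodulin-binding transcription activator, spanned the gene with 11 to 17 tags, and 3 of 4 were present at D0. Those of Tns3, a focal adhesion tensin, had 10 to 16 tags, and 1 of 4 was present at D0. Plec and Gm20388 also had 4 members.

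The sequence around the summit was the last measure that the rule did not use. In windows of 200 bp, members absent at D0 had a median GC content of 56.5% and a CpG observed over expected ratio of 0.462, against 53.5% and 0.355 for kept regions absent at D0. Members present at D0 went the other way, with 56.0% and 0.424 against 62.5% and 0.739. At 11 to 14 tags the ratios were 0.476 and 0.421 absent at D0, and 0.426 and 0.538 present at D0, so both differences narrowed but kept their direction.

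Short motifs were searched as exact letters on both strands, where N is any base. They were the Pou octamer ATGCAAAT, the Pou-Sox composite core TTGTNATG, Klf CCACACCC, Esrrb AAGGTCA, AP-1 TGANTCA, the CTCF core CNAGGNGGC, Tead ACATTCC, Runx TGTGGTT, Ets CCGGAAG, Nrf1 GCGCATGC, Yy1 AAGATGGC and the E-box CACGTG, and matches of different motifs may share bases. At least 1 was found in 37.6% (35.9 to 39.4%) of the members, 44.6% (43.9 to 45.4%) of the kept regions, 39.0% of the mirror regions and 54.6% of all D6_siNT regions. Unlike members, kept regions and mirror regions, the set of all D6_siNT regions required no D6T- or iPSC region, so its shares are an unlike background. A match is a description of the letters and not a binding site.

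Members absent at D0 held fewer motifs of the reprogramming factors than kept regions absent at D0. The Pou-Sox core was found in 2.36% (1.72 to 3.24%) against 4.88% (4.18 to 5.69%), the octamer in 1.91% (1.34 to 2.72%) against 3.67% (3.07 to 4.39%) and Klf in 4.66% (3.72 to 5.82%) against 7.56% (6.69 to 8.54%). Over all D6_siNT regions absent at D0 these shares were 6.22%, 3.08% and 6.72%. At 11 to 14 tags the intervals overlapped for all 3, with the Pou-Sox core in 2.33% (1.56 to 3.48%) of the members and 3.96% (2.97 to 5.25%) of the kept regions. The Esrrb letters were equally frequent, 3.45% in both. The mirror regions absent at D0 held the Pou-Sox core in 3.89% (3.02 to 5.01%).

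The AP-1 letters were found in 6.70% (5.57 to 8.05%) of the members absent at D0 and in 11.8% (10.7 to 12.9%) of the kept regions, but in 9.09% and 9.06% of those present at D0. All shares, those of kept regions included, were far below that over all D6_siNT regions, 28.6%, for which no D6T- or iPSC region was required. At 11 to 14 tags AP-1 was in 5.98% (4.67 to 7.64%) of the members and 8.36% (6.88 to 10.1%) of the kept regions absent at D0, with overlapping intervals. The mirror regions absent at D0 held it in 7.92% (6.64 to 9.41%). The CTCF core was more frequent in members than in kept regions absent at D0, 9.64% (8.27 to 11.2%) against 6.25% (5.46 to 7.16%), and 3.70% over all D6_siNT regions absent at D0. At 11 to 14 tags it was found in 9.13% (7.49 to 11.1%) and 8.18% (6.72 to 9.92%), with overlapping intervals. The mirror regions absent at D0 held the CTCF core in 9.83% (8.41 to 11.5%), close to the members. Among regions present at D0, the Ets letters, which are common in promoters, were found in 4.08% (3.19 to 5.20%) of the members and 11.2% (10.7 to 11.8%) of the kept regions, and Nrf1 in 1.07% and 3.09%. At 11 to 14 tags Ets was in 3.76% (2.69 to 5.23%) and 5.93% (4.98 to 7.06%), and Nrf1 in 0.911% (0.462 to 1.79%) and 1.46% (1.02 to 2.09%), both with overlapping intervals.

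**Figure D5:**
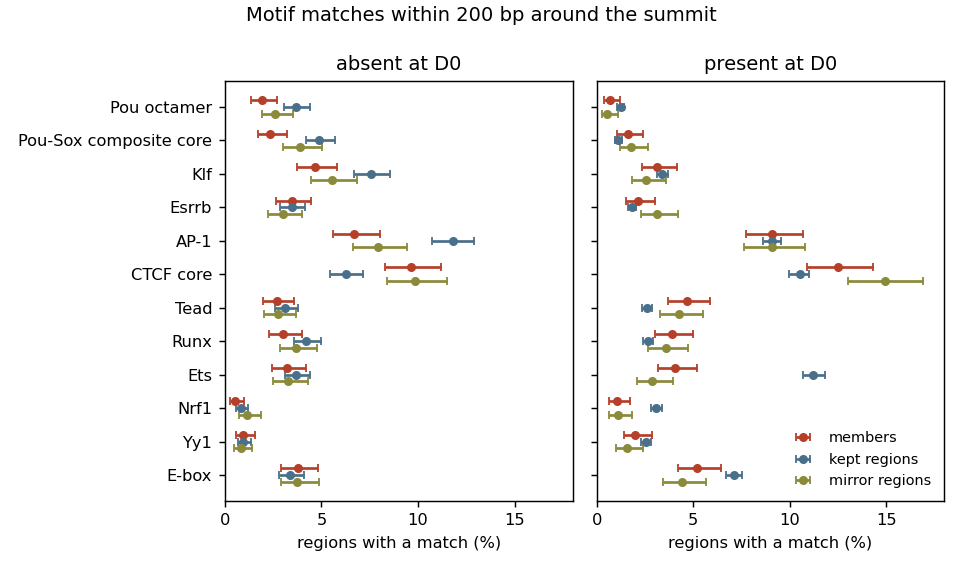
Share of regions with a match to each of 12 motifs within 200 bp around the summit (x axis, percent; motifs on the y axis), for members, kept regions and mirror regions absent (left) and present (right) at D0. Points are shares and bars are 95% Wilson intervals; absent at D0, AP-1 was found in 6.70% of members, 11.8% of kept regions and 7.92% of mirror regions, and at 11 to 14 tags, which the plot does not show, in 5.98% of members and 8.36% of kept regions.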

How the data were processed

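The series measured accessibility by ATAC-Seq in 9 libraries, 1 per condition. Per the file headers and the methods, reads of 51 bp were mapped by the authors with STAR (build mm9), cleared of duplicates with Picard and used to call peaks in each library without a control with MACS2 2.1.0.20151222 at a q-value cutoff of 0.05 with the local background switched off. Reads that mapped to several places were dropped by the authors. Pileup, as deposited, is a signal that counts the extended tags (200 bp) at a summit, without scaling to depth. The deposited fold enrichment is a ratio over evenly spread tags, and the deposited significance is −log10 of p and q. Removing duplicates and calling each library at its own depth set the lowest pileup that could be called.

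The peaks of each library were merged, pileup was divided by the total tags (CPM), and regions were annotated with GENCODE vM1 on the same build, which holds 34653 genes on chromosomes 1 to 19. The members and the 9 gene lists were chosen with earlier results of these data known. Named were the 10 strongest members and 8 strongest promoter members of each class by D6_siNT pileup, members of listed genes and the 5 genes with most members; at equal numbers the higher pileup decided. Shares have 95% Wilson intervals, which cover counting error only. Functions were tested on simulated data (14 of 14 checks passed). Alternatives were stronger peaks, equal region numbers, other overlaps, promoters, genes and windows. Python 3.11.15, numpy 2.4.6, pandas 2.3.3, scipy 1.17.1 and matplotlib 3.10.9 were used.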

Additional observations from a re-analysis of the deposited data

How the results depend on the processing

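No paired analysis was possible because each condition had 1 library. With the stronger 50% of the peaks of every file, which by construction asks for stronger calls in all libraries, there were 1406 members (12.5% missing) and 1203 mirror regions, 54.8% of the members were present at D0, their promoter shares were 40.6% (absent at D0) and 53.4% (present), and 29.4% were called at all of D3, D9T-, D12S+ and D16S+. The missing share of 14.8% became 15.4% with equal numbers of siRNA regions, 15.6% with an overlap of 50% of the shorter region, 11.9% where a region within 500 bp counted as present and 14.1% at a −log10 q of at least 2. The share present at D0, 48.8% as reported, became 46.9% with the wider overlap and 51.3% with the 500 bp rule. Promoter shares absent and present at D0 became 27.3% and 29.2% with the 500 bp rule, 28.3% and 26.9% with a promoter from 1 kb upstream to 100 bp downstream, and 27.6% and 28.9% with protein-coding genes only. Without D9T-, 62.9% were called at the remaining time points. Any motif was found in 20.9% of windows of 100 bp and in 49.5% of 300 bp, as fewer or more bases were searched, and the median pileup was 13 tags before scaling. The counts of members and of mirror regions stayed within 1.5 times under the other settings. Depth limits the result, as members at 9 to 14 tags lie near the lowest pileup called in D6_siH3.3. With 1 library per condition, a loss and a missed call cannot be told apart at higher pileup either. Of the D6_siH3.3 regions found in D6T- and iPSCs, 9.53% at 15 to 17 tags had no D6_siNT region.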

Other observations

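The chromosomes named here were chosen after their values were seen. Of the D6_siNT regions also found in D6T- and iPSCs, 19.4% (16.9 to 22.1%) on chromosome 15 and 18.1% (16.3 to 20.1%) on chromosome 11 were missing, against 10.9% (9.00 to 13.2%) on chromosome 13. The share of members present at D0 lay between 37.0% on chromosome 13 and 58.1% on chromosome 17. Chromosome X was outside the rule. There, 46 of 406 such regions (11.3%, 8.60 to 14.8%) were missing, of which 18 were present at D0, and 36 of 400 D6_siH3.3 regions (9.00%, 6.57 to 12.2%) had no D6_siNT region.

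Members lay near each other in places. Of the 3063 members, 332 (10.8%) had another member within 5 kb.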
